A study of Homo sapiens with 8 samples.

Results

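The HOX, MEIS1 and PBX3 program is a set of 9 transcription factor genes whose joint expression is typical of acute myeloid leukaemia with mutant NPM1. Its members were taken by name: HOXA5, HOXA7, HOXA9 and HOXA10 of the HOXA cluster on chromosome 7, HOXB3, HOXB4 and HOXB6 of the HOXB cluster on chromosome 17, and the cofactor genes MEIS1 on chromosome 2 and PBX3 on chromosome 9. All 9 were found, each under a single Ensembl identifier, among the 58395 genes of the count files. They were followed in OCI-AML3, an established human acute myeloid leukaemia line that carries an NPM1 mutation, in 4 groups of 2 libraries: polysome RNA labelled FBL knockdown, polysome RNA labelled WT, input RNA labelled FBL knockdown and input RNA labelled WT. Per the protocols, the cells had received short hairpins either against FBL, which encodes the nucleolar methyltransferase fibrillarin, or as a control (called labelled knockdown and labelled control below), and every sample received cycloheximide (100 µg/mL, 15 min) to hold ribosomes on mRNA. From each lysate, 100 µL was kept as input and 290 µL was run on a sucrose gradient. The gradient gave 14 fractions, and the sources used here do not say which of them made up the polysome RNA. The design asks whether lowering fibrillarin changes the transcriptome or the RNA that is carried on polysomes.

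HOX genes lie in clusters whose order along the chromosome follows their order of use in the embryo, and in blood the genes towards the 3′ end and the middle of the HOXA and HOXB clusters are active in stem and progenitor cells and are shut down as cells mature. HOX proteins bind DNA weakly alone. TALE-class homeodomain partners, among them PBX and MEIS proteins, bind beside them and sharpen their choice of sites, and HOXA9 with MEIS1 is the pair best known for transforming myeloid progenitors. In leukaemia with mutant NPM1 or a rearranged KMT2A gene this expression is held on by the menin and KMT2A complex.

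The FBL counts did not follow the labels. FBL had 499 and 165 CPM (counts scaled to library size) in polysome libraries 1 and 2 labelled knockdown, against 498 and 163 CPM in those labelled control. In input RNA it had 253 and 84.2 CPM in the libraries labelled knockdown, against 250.0 and 88.1 CPM in those labelled control. FBL was thus lower in library 2 of every group and differed little between the labels, so the groups are called by their labels throughout, and a difference between labels is not a difference in FBL RNA. HOXA9 and HOXB6 were the members that were also lower in library 2 of all 4 groups, a pattern that 12.1% of all tested genes had. Gene counts per library, in mega-counts (M), ran from 22.2 M in polysome labelled knockdown 2 to 43.1 M in input labelled knockdown 2. Of the 10 myeloid markers examined, SPI1 had 743 to 1130.4 CPM and CD33 8.10 to 22.8 CPM, whereas FLT3 had 1.43 to 7.56 CPM, MPO 0 to 3.72 CPM and KIT reads in a single library, at 0.178 CPM. The T cell genes CD3D, CD3E and CD2, the B cell gene MS4A1, the epithelial genes EPCAM and KRT19 and the platelet genes PF4 and GP9 were at 0 in every library.

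Levels are CPM after TMM scaling, a normalisation that assumes most genes keep their share of a library, so every change is relative to the other genes. Libraries are numbered 1 and 2 as in their titles. Whether both came from separate cultures is not in the labels, so a p-value reflects the variation between libraries, which could be technical. Libraries 1 and 2 of every group also differed in FBL, so this variation includes any difference that goes with FBL counts. The tests between labels therefore do not show what lowering fibrillarin does. In bulk RNA, fewer cells with a transcript and less of it per cell cannot be told apart.

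Members of the HOXA cluster came first in abundance. HOXA10 (ENSG00000253293, chr7:27170591-27180261, minus strand, GRCh38), which restrains myeloid maturation when it is overexpressed, had 108 and 101 CPM in polysome libraries labelled knockdown and 111 and 98.5 CPM in polysome libraries labelled control, against 166 and 142 CPM in input libraries labelled knockdown and 163 and 165 CPM in input libraries labelled control. All 4 polysome libraries lay below all 4 input libraries, and within each fraction the labels overlapped. HOXA9 (ENSG00000078399, chr7:27162435-27175180, minus strand), which has been linked to poor outcome in acute myeloid leukaemia, had 85.2 and 53.2 CPM in polysome labelled knockdown and 74.9 and 63.0 CPM in polysome labelled control, against 109 and 90.5 CPM in input labelled knockdown and 94.9 and 86.9 CPM in input labelled control. Here too the polysome libraries were below the input libraries without overlap.

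HOXA5 and HOXA7 were the low members of that cluster. HOXA5 (ENSG00000106004, chr7:27141052-27143668, minus strand), whose gene is often DNA-methylated in myeloid leukaemia, had 2.68 and 3.86 CPM in polysome labelled knockdown and 1.71 and 4.91 CPM in polysome labelled control, against 4.21 and 3.68 CPM in input labelled knockdown and 4.62 and 4.70 CPM in input labelled control. These levels rest on 59 to 178 reads a library, and the polysome libraries straddled the input range. HOXA7 (ENSG00000122592, chr7:27153716-27157936, minus strand) had 12 and 0 reads in polysome labelled knockdown and 0 and 0 in polysome labelled control, against 4 and 12 in input labelled knockdown and 0 and 0 in input labelled control. HOXA7 was therefore close to absent from these counts, and no fold change is given for it. HOXA-AS3, on the opposite strand, shares 62.5% of its exon bases, and the counting of such shared bases is not stated.

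The HOXB members lay between HOXA9 and HOXA5 in level. HOXB3 (ENSG00000120093, chr17:48548870-48604912, minus strand), which acts in stem cell renewal together with HOXB4, had 11.1 and 10.9 CPM in polysome labelled knockdown and 12.5 and 13.1 CPM in polysome labelled control, against 24.2 and 19.7 CPM in input labelled knockdown and 21.0 and 23.0 CPM in input labelled control. HOXB4 (ENSG00000182742, chr17:48575513-48580111, minus strand), known for expanding blood stem cells when supplied in excess, had 14.8 and 10.4 CPM in polysome labelled knockdown and 17.6 and 20.9 CPM in polysome labelled control, against 13.8 and 14.3 CPM in input labelled knockdown and 15.5 and 14.8 CPM in input labelled control. HOXB3 was lower in every polysome library than in any input library, whereas the HOXB4 fractions overlapped. HOXB6 (ENSG00000108511, chr17:48595751-48604992, minus strand), which immortalises marrow cells in mouse experiments, had 31.5 and 31.4 CPM in polysome labelled knockdown and 37.7 and 28.2 CPM in polysome labelled control, against 21.3 and 18.5 CPM in input labelled knockdown and 23.5 and 20.7 CPM in input labelled control. It was the member whose polysome libraries all lay above its input libraries.

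The cofactors were both lower in polysome RNA. MEIS1 (ENSG00000143995, chr2:66433452-66573869, plus strand), the limiting partner of HOXA9 in mouse leukaemia models, had 18.6 and 10.2 CPM in polysome labelled knockdown and 14.5 and 15.0 CPM in polysome labelled control, against 28.7 and 25.6 CPM in input labelled knockdown and 25.97 and 27.6 CPM in input labelled control. PBX3 (ENSG00000167081, chr9:125747345-125967377, plus strand), which forms complexes with HOXA9 and MEIS1, had 8.75 and 4.82 CPM in polysome labelled knockdown and 8.13 and 5.79 CPM in polysome labelled control, against 9.82 and 10.96 CPM in input labelled knockdown and 13.9 and 12.1 CPM in input labelled control. Neither gene had a polysome library inside its input range.

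**Figure D1:**
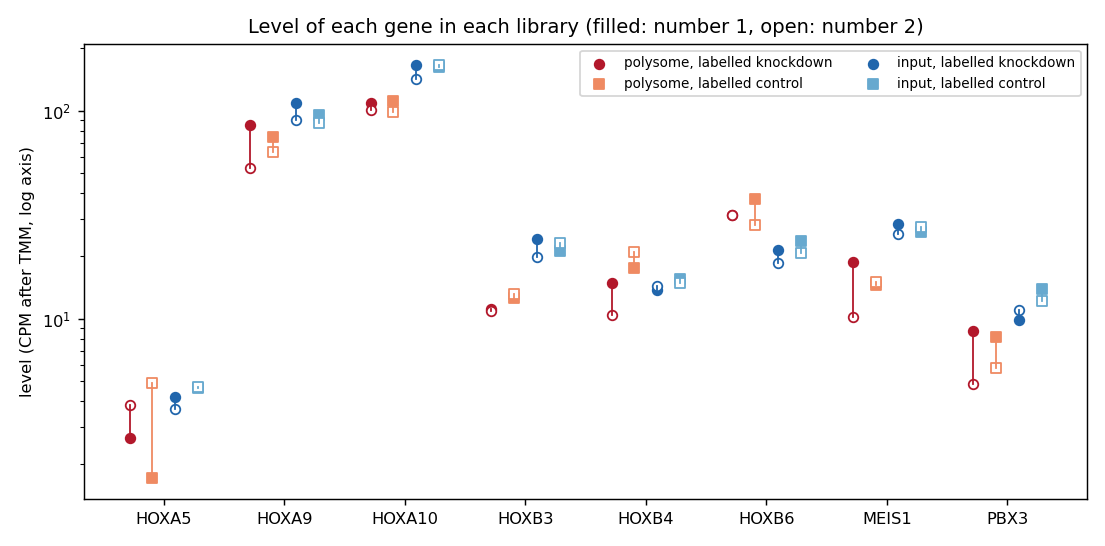
Level of each member in each of the 8 libraries, in CPM after TMM scaling on a log axis. Filled symbols are library 1 and open symbols library 2, and a line joins the 2 libraries of a group; HOXA7, at 0 in 5 libraries, is not drawn. HOXA9, HOXA10, HOXB3, MEIS1 and PBX3 lie lower in polysome than in input libraries, and HOXB6 lies higher.

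Summed over the 9 members, the program held 281 and 225 CPM in polysome labelled knockdown and 278 and 249 CPM in polysome labelled control, against 377 and 326 CPM in input labelled knockdown and 362 and 355 CPM in input labelled control. The 4 polysome sums were below the 4 input sums, while the labels overlapped in each fraction. HOXA10 gave 38.5% to 44.6% of the polysome sum and 43.7% to 46.5% of the input sum, and HOXA9 gave 23.6% to 30.3% and 24.5% to 28.8%, so the sums mainly describe these genes. The share of HOXB6 was 11.2% to 14.0% in polysome libraries, against 5.65% to 6.50% in input libraries.

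Levels per kilobase of exon, counting the exons of all isoforms together, allow only a rough comparison of members. This length is 10934 bases for MEIS1, 7456 for HOXB3 and 4529 for PBX3, against annotated mRNAs of 4291, 4208 and 2775 bases. For HOXB4 both lengths are 3757 bases, and for HOXA5 they are 1707 and 1657 bases. The order of the members below HOXB6 therefore depends on the length used. In input RNA HOXA10 led with 38.4 to 44.9 CPM per kb and HOXA9 followed with 28.7 to 35.9 CPM per kb. HOXB6 came next with 7.10 to 9.04 CPM per kb, then HOXB4 with 3.66 to 4.13 CPM per kb. Those ranges were apart from each other. HOXB3, PBX3, HOXA5 and MEIS1 had mean levels of 2.95, 2.58, 2.52 and 2.46 CPM per kb. PBX3 and HOXA5 overlapped with each other and with HOXB3 and MEIS1. The ranges of HOXB3 (2.65 to 3.25 CPM per kb) and MEIS1 (2.34 to 2.62 CPM per kb) were just apart. In polysome RNA HOXA10 and HOXA9 overlapped, at 26.6 to 30.0 and 17.5 to 28.1 CPM per kb, and HOXB6 followed at 10.8 to 14.5 CPM per kb. HOXB4, at 2.77 to 5.55 CPM per kb, overlapped with HOXA5 at 1.00 to 2.87 CPM per kb, and HOXA5 in turn with HOXB3, PBX3 and MEIS1 at means of 1.60, 1.52 and 1.33 CPM per kb.

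The members are only part of what these clusters expressed. HOXA11, a posterior gene of the HOXA cluster, averaged 60.3 CPM per kb in polysome and 44.4 CPM per kb in input libraries, above both HOXA9 and HOXA10 in polysome RNA. HOXA13, at the 5′ end of the cluster, averaged 4.85 CPM per kb in polysome and 14.1 CPM per kb in input libraries. In the HOXB cluster HOXB8 averaged 14.7 CPM per kb in polysome and 11.7 CPM per kb in input libraries, more than HOXB6, and HOXB7 averaged 5.55 and 6.61 CPM per kb. HOXA6 and HOXB1 were at 0 throughout. The 18 genes of the HOXC and HOXD clusters summed to 0.475 CPM or less in every library, and 14 of them were at 0 in all 8. Nearly all HOX reads thus came from the HOXA and HOXB clusters, with the highest levels per kilobase from HOXA9 to HOXA11. HOXA11-AS lies on the opposite strand of HOXA11 and had 85.4 CPM per kb in polysome and 46.4 CPM per kb in input libraries, and strand was not stated for the counting.

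**Figure D2:**
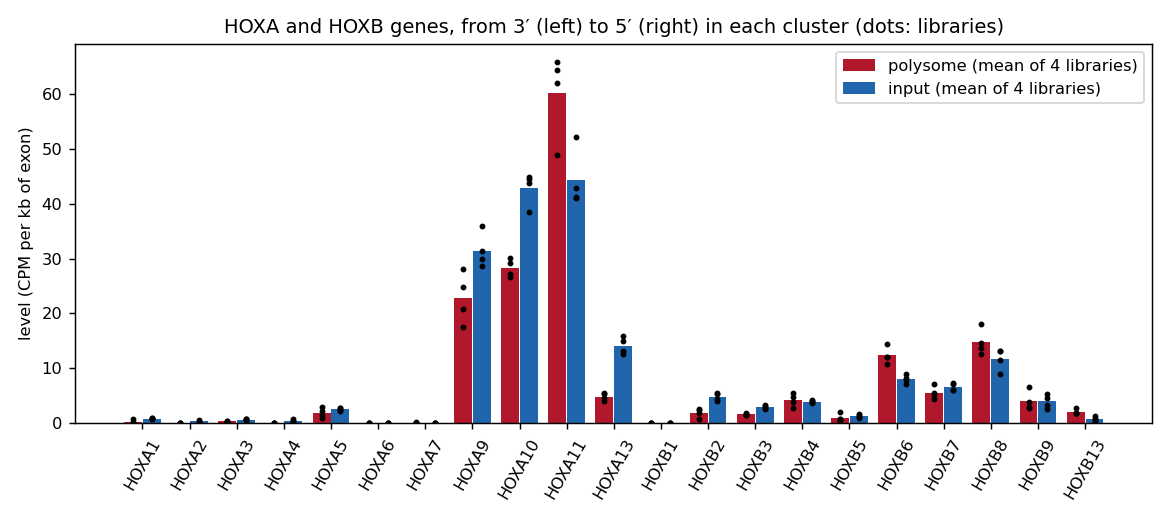
Level of every HOXA and HOXB gene in CPM per kb of exon, in cluster order from the 3′ to the 5′ end. Bars are means of the 4 polysome and of the 4 input libraries, drawn side by side, and dots are the libraries. HOXA9, HOXA10 and HOXA11 stand highest, HOXA11 at 60.3 CPM per kb in polysome RNA.

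Some of these genes carry microRNAs and have matches to them. The hairpin of miR-196b lies within exon bases of HOXA9 and that of miR-10a within exon bases of HOXB4, and both microRNAs are known to act on HOX transcripts. Mature sequences from RefSeq (GRCh38.p14) are shown with the seed, bases 2 to 8, in capitals, followed by sites in the 3′ UTR of members whose polysome levels are described below, from GENCODE v29 transcripts, with the match to the miR-196b seed (ACTACCT, read on the mRNA strand) in capitals.
hsa-miR-196b-5p: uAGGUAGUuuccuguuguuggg
hsa-miR-10a-5p: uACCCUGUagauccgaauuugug
HOXA9 first site: acaaaaggaaagaaACTACCTt
HOXA9 second site: atgtgcagaaggttACTACCTa
HOXA5 site: atatttttattcaaACTACCTa
HOXB6 site: tggaaggagcacatACTACCTa
PBX3 site: tagagtgctcacttACTACCTc

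The match occurred in 5 of the 9 members, the 4 named with these sites and HOXA7 with 4 of them, and in 6.84% of the 13014 mRNAs with a principal transcript. The match to miR-10a (ACAGGGT) occurred in HOXB3 alone among the members and in 12.4% of those mRNAs. Of the members with a match, HOXA9, PBX3 and HOXB3 were lower in polysome RNA, HOXB6 was higher and HOXA5 was uncalled. Of those with none of either kind, HOXA10 and MEIS1 were lower and HOXB4 was uncalled. Whether the microRNAs bear on polysome levels was not tested. Mature microRNA levels were not measured in these libraries, and a match is a description of the letters only.

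The start codons, where scanning ribosomes begin translation, also differ between members. They are shown from 6 bases before to 9 bases after the ATG, which is in capitals, as read from the GRCh38 annotation.
HOXA9 (chr7:27165455-27165457, minus strand): acggtgATGgccaccact
HOXA5 (chr7:27143605-27143607, minus strand): aaacaaATGagctcttat
HOXB3 (chr17:48552472-48552474, minus strand): ccagcgATGcagaaagcc
HOXB4 (chr17:48578317-48578319, minus strand): aaattaATGgctatgagt
HOXB6 (chr17:48598148-48598150, minus strand): ctcccaATGagttcctat
MEIS1 (chr2:66435857-66435859, plus strand): aggccgATGgcgcaaagg
PBX3 (chr9:125747454-125747456, plus strand): ggcgggATGgacgatcaa

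A purine 3 bases before the ATG, a base that favours initiation, was present in HOXA9, HOXB3 and PBX3 and also in HOXA7, and in 85.9% of the 12724 mRNAs with an annotated leader. It was missing in HOXA5, HOXB4, HOXB6 and MEIS1. HOXB6, higher in polysome RNA, and HOXA5, uncalled there, had neither the purine nor a G directly after the ATG, a state found in 6.63% of mRNAs. The annotated transcript of HOXA10 has no leader, so no window is shown for it. Leaders also varied in length. HOXB4 and HOXB3 have annotated leaders of 1792 and 1448 bases with 18 and 21 upstream ATGs, against medians of 198 bases and 1 upstream ATG over the 13014 mRNAs. PBX3 has 16 bases, HOXA5 61 and HOXA9 73. The HOX members have GC-rich coding sequences, from 61.9% in HOXA9 to 68.5% in HOXB4 against a median of 52.8%, while MEIS1 and PBX3 are at 49.5% and 50.3%. Which isoforms these cells used was not measured.

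Between the labels, no member passed the test. In input RNA 0 of 9 members were called (edgeR quasi-likelihood test, Benjamini-Hochberg adjusted p under 0.05 over 16503 genes), against 0% of all genes. There 744 genes had an unadjusted p under 0.05, with DESeq2 calling 76 and limma-voom 3 at an adjusted p under 0.05, none of them a member. The median log2 fold change of the 8 members other than HOXA7 was -0.10, against 0.00 over all genes. HOXA10 differed by a log2 fold change of -0.09 with a standard error (SE) of 0.12 and a 95% interval from -0.35 to 0.18, and HOXA9 by 0.13 (SE 0.21, interval -0.33 to 0.59). MEIS1 differed by 0.02 (SE 0.26, interval -0.57 to 0.61). The estimate farthest from 0 was that of PBX3, -0.32 (SE 0.34, interval -1.08 to 0.44), whose adjusted p was 1 in edgeR. The labelled knockdown libraries of PBX3, HOXA5 and HOXB4 lay below the labelled control libraries, as did those of 20.3% of all genes, and the few HOXA7 reads lay above, as for 21.1% of all genes. The 95% intervals of PBX3, HOXA5 and HOXB4 include 0.

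In polysome RNA 0 of 9 members were called, against 0.879% of all genes (0.630% lower), and the members' median log2 fold change was -0.03, against -0.06 over all genes. Here 2987 genes had an unadjusted p under 0.05, HOXB4 among the members, and DESeq2 called 1203 genes and limma-voom 297, again no member. HOXB4 had the estimate farthest from 0 at -0.60 (SE 0.24, 95% interval -1.14 to -0.06, adjusted p = 0.232 in edgeR). Its labelled knockdown libraries were lower in 2 of 2 cases than both labelled control libraries, and its adjusted p ran from 0.063 to 0.571 over the alternatives run. Without polysome labelled knockdown 2 its value was -0.38, and without polysome labelled knockdown 1 it was -0.88. HOXB3 also lay lower without overlap, as 23.6% of all genes did, at -0.23 (SE 0.21, interval -0.70 to 0.25, adjusted p = 0.610). HOXA10 came to -0.00 (interval -0.27 to 0.26), HOXA9 to 0.01 (interval -0.45 to 0.47), MEIS1 to -0.03 (interval -0.62 to 0.57) and PBX3 to -0.03 (interval -0.80 to 0.74).

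**Figure D3:**
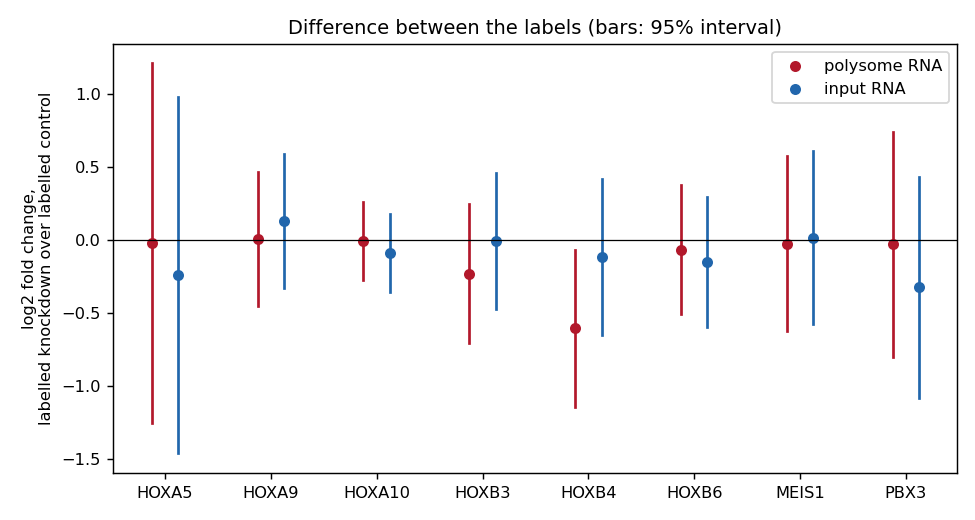
Log2 fold change of labelled knockdown over labelled control for each member, in polysome and in input RNA, with 95% intervals from edgeR. All intervals include 0 except that of HOXB4 in polysome RNA, which runs from -1.14 to -0.06 before adjustment over genes.

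The change in polysome RNA relative to that in input RNA, an interaction term that measures a change in polysome association, was called for 0 of 9 members, against 0% of all genes. At an unadjusted p under 0.05 there were 1046 genes, none of them a member, and DESeq2 called 10 genes and limma-voom 0. HOXB4 had -0.49 (SE 0.34, 95% interval -1.25 to 0.27) and PBX3 0.29 (SE 0.48, interval -0.78 to 1.37). For HOXA10, the best measured member, the interval ran from -0.30 to 0.46. The polysome and input comparisons are fitted on different libraries but share a single estimate of each gene's spread.

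Between fractions the members did differ. Over the 4 lysates, each of which gave an input and a polysome library, 6 of 9 members were called: HOXB6 rose in polysome RNA relative to input RNA, and HOXA9, HOXA10, HOXB3, MEIS1 and PBX3 fell. Of all genes 42.9% were called, 20.0% higher and 22.8% lower, so a call is common here. The median log2 fold change of the 8 members other than HOXA7 was -0.53, against -0.22 over all genes. Polysome libraries lay wholly below input libraries for 5 members and for 22.7% of all genes, and wholly above for HOXB6 and for 17.7% of all genes. Within the labelled knockdown libraries alone 4 of 9 members were called (HOXA10, HOXB3, MEIS1 and HOXB6), against 28.5% of all genes. Within the labelled control libraries alone 3 of 9 were called (HOXA10, HOXB3 and MEIS1, all lower), against 29.1% of all genes, of which 12.7% lower. HOXB6 came to 0.66 (adjusted p = 0.032) in labelled knockdown and 0.57 (adjusted p = 0.054) in labelled control libraries with edgeR, and the difference between the labels was not called.

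HOXA10 fell by 0.60 on the log2 scale (SE 0.08, edgeR adjusted p = 0.00027), lower in 4 of 4 lysates, with values from -0.50 to -0.74 in single lysates. HOXB3 fell by 0.89 (SE 0.15, adjusted p = 0.00085), with lysates from -0.73 to -1.09. MEIS1 fell by 0.88 (SE 0.19, adjusted p = 0.0038), with lysates from -0.61 to -1.29, the last in labelled knockdown 2.

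HOXA9 fell by 0.46 (SE 0.15, edgeR adjusted p = 0.028), with lysates from -0.34 to -0.76. Its call was lost without input labelled knockdown 1 (adjusted p = 0.060) and without polysome labelled control 2 (adjusted p = 0.083). PBX3 fell by 0.75 (SE 0.24, adjusted p = 0.030), with lysates from -0.16 to -1.11. Its call was lost without input labelled knockdown 1, input labelled knockdown 2, input labelled control 1 or polysome labelled control 2, at adjusted p of 0.051, 0.074, 0.083 and 0.080.

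HOXB6 rose by 0.62 (SE 0.14, adjusted p = 0.0053), higher in 4 of 4 lysates, from 0.44 to 0.75. HOXB-AS3, a noncoding gene on the opposite strand that shares 16.3% of the HOXB6 exon bases, also rose, by 0.67 (SE 0.08). Without a stated strand setting, it is not known whether reads from those shared bases were counted for HOXB6, for HOXB-AS3 or for neither. HOXB3 shares a further 16.6% of the HOXB6 exon bases on the same strand, and 1746 of the 2604 exon bases of HOXB6 are its own. Likewise 27.0% of the HOXA9 and 26.3% of the HOXA10 exon bases are shared with other genes. HOXB4 had 0.09 (SE 0.17, adjusted p = 0.693), with 3 lysates above 0 and labelled knockdown 2 at -0.44. HOXA5 had -0.39 (SE 0.39, adjusted p = 0.460). Its lysates numbered 2 lay at 0.06 and 0.05, against -0.57 and -1.21 for those numbered 1.

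**Figure D4:**
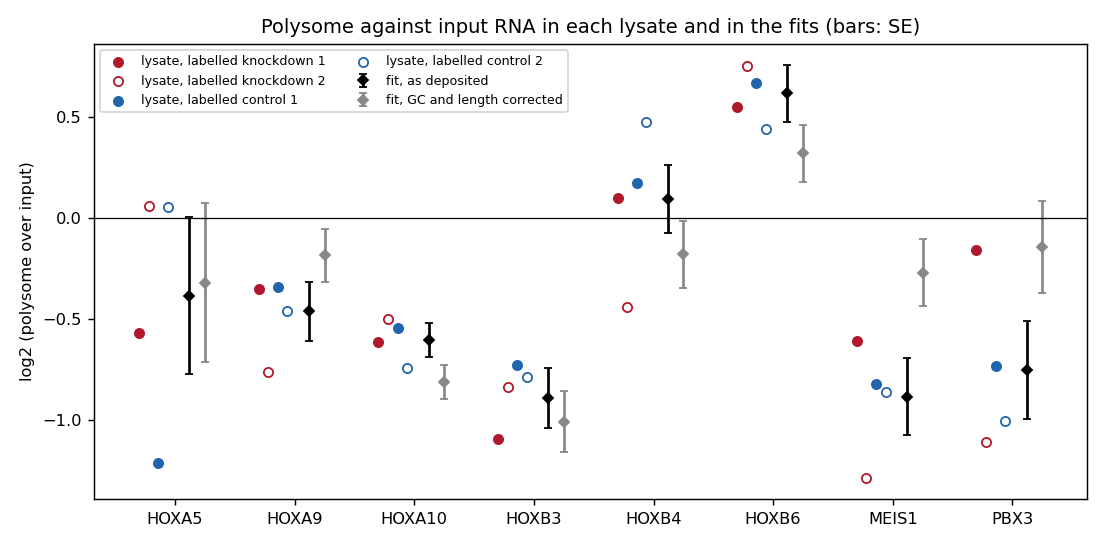
Log2 ratio of polysome over input RNA for each member in each of the 4 lysates (circles), with the edgeR estimate from the deposited counts (black) and after correction for GC content and length (grey); bars are SEs. HOXA10 and HOXB3 stay below 0 in every lysate and in both fits, whereas the grey estimates of HOXA9, MEIS1, PBX3 and HOXB6 move towards 0.

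GC content of the mRNA moved with this comparison across the transcriptome. Over 13014 mRNAs the median log2 fold change of polysome over input RNA went up through 5 equal bins of rising GC content, at -0.85, -0.48, -0.03, 0.41 and 0.60, and the correlation across genes, which are not independent replicates, had Pearson r = 0.40 and Spearman rho = 0.57. MEIS1 and PBX3 are GC-poor, at 42.1% and 43.1% of the mRNA, and mRNAs within 2 points of them had median log2 fold changes of -0.61 and -0.55. HOXA9, at 47.8%, lies where the median was -0.19. HOXA10 and HOXB3, at 54.2% and 51.6%, lie where it was 0.31 and 0.11, and HOXB6, at 55.7%, where it was 0.40.

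After a correction for GC content and length, chosen after seeing the data, 2 of the 9 members were called, HOXA10 and HOXB3. HOXA10 fell by 0.81 (SE 0.08, edgeR adjusted p = 5.7e-05) and HOXB3 by 1.01 (SE 0.15, adjusted p = 0.00054). MEIS1 came to -0.27 (adjusted p = 0.243), HOXA9 to -0.18 (adjusted p = 0.320), PBX3 to -0.14 (adjusted p = 0.681) and HOXB6 to 0.32 (adjusted p = 0.1096). HOXB4, uncalled in both fits, had -0.18 after the correction. With the lysate as a block in the same fit the same 2 members were called. Of 13002 genes that could be corrected, 2565 were then called higher and 1659 lower, against 3306 higher and 3766 lower of 16503 before it. The correction takes out any difference that goes with GC content, whatever its source, which was not tested.

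**Figure D5:**
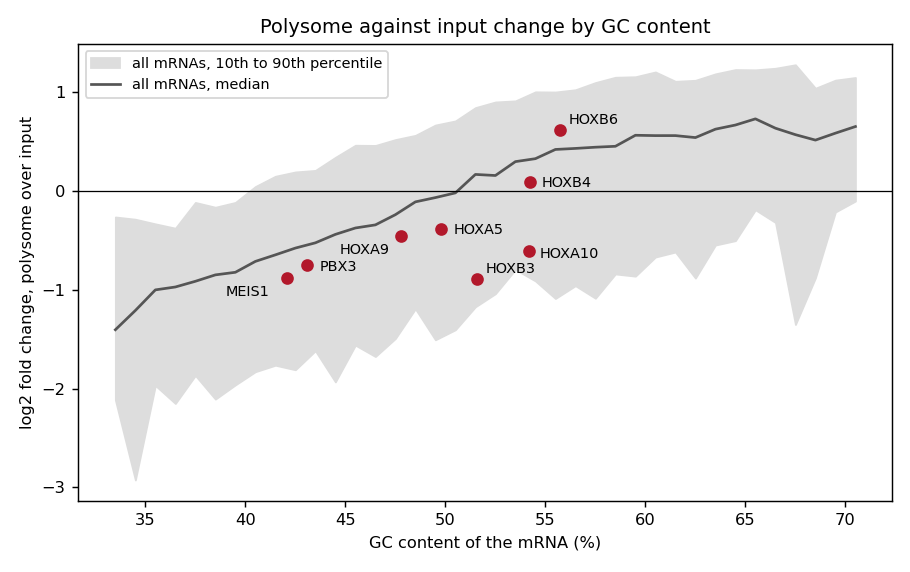
Log2 fold change of polysome over input RNA against the GC content of the mRNA in percent. The line is the median and the band the 10th to 90th percentile of all mRNAs in bins of GC content, and points are the members other than HOXA7. HOXA10 at -0.60 and HOXB3 at -0.89 lie below the medians of mRNAs of like GC content, 0.31 and 0.11, and MEIS1, PBX3 and HOXA9 lie nearer to theirs. HOXA10 and HOXB3 are still inside the band, and 14.6% and 13.1% of mRNAs of like GC content had lower values.

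Among the other HOXA and HOXB genes 12 of 14 could be tested. In polysome against input RNA 2 rose and 4 fell, against the same shares of all genes, 20.0% and 22.8%. HOXA11 rose by 0.44 (SE 0.11) and HOXB13 by 1.29 (SE 0.37). HOXA13 fell by 1.54 (SE 0.10) and HOXB2 by 1.37 (SE 0.36), and the other 2 that fell, HOXA2 and HOXA4, had next to no polysome reads. HOXA13 had 23.7, 20.8, 26.5 and 27.6 CPM in the polysome libraries labelled knockdown 1 and 2 and control 1 and 2, against 66.4, 63.9, 76.0 and 80.7 CPM in the matching input libraries. After the GC correction 5 of the 12 were called lower and 0 higher, against 12.8% and 19.7% of the genes then fitted. These were HOXA13 (-1.09), HOXB2 (-1.79), HOXA3 (-1.49) and the barely counted HOXA2 and HOXA4, while HOXA11 (0.18) and HOXB13 (0.88) were not called. With the lysate as a block in that fit, HOXA13 and HOXB2 stayed lower and HOXB13 was called higher (0.96). None of the 12 was called between the labels in either fraction.

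Noncoding genes of the clusters showed both directions, 2 higher and 2 lower of the 6 tested. HOXA11-AS, opposite HOXA11, rose by 0.88 (SE 0.10) and HOXB-AS3 by the value given above. HOTAIRM1, at the 3′ end of the HOXA cluster, fell by 0.94 (SE 0.24), and HOTTIP, which recruits WDR5 and KMT2A to the 5′ HOXA genes, fell by 0.70 (SE 0.12). No GC correction was made for these, since it was fitted on mRNAs.

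Of the other TALE genes, 8 of 9 were tested. PBX2, the most abundant PBX gene at 17.2 CPM per kb in polysome and 15.2 CPM per kb in input libraries, had 0.17 (SE 0.09, edgeR adjusted p = 0.150) against PBX3 at -0.75. TGIF2, a TALE repressor, rose in polysome RNA by 0.47 (SE 0.08), and its relative TGIF1 fell by 1.09 (SE 0.17), both also called after the GC correction. TGIF2 was the single TALE gene of the 8 called between the labels, in polysome RNA, against 0.879% of all genes (0.630% lower). In input RNA it was uncalled but lower without overlap, as were 20.3% of all genes. Its input libraries had 84.5 and 87.9 CPM labelled knockdown, against 96.8 and 101 CPM labelled control. In polysome RNA it had 111 and 97.1 CPM in libraries labelled knockdown, against 151 and 162 CPM in those labelled control, a log2 fold change of -0.59 with an adjusted p of 0.049 in edgeR. This call ended when any library other than polysome labelled knockdown 1 was left out (adjusted p 0.097 to 0.146 in those 7 fits), with RLE (0.057) or upper quartile scaling (0.067), with GC and length correction (0.079) and with polysome libraries alone (0.302).

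The chromatin regulators that hold HOX genes on or off were not called between the labels in either fraction (0 of 23 tested). Between fractions 6 of the 23 rose and 10 fell, against 20.0% and 22.8% of all genes. RING1, a Polycomb ubiquitin ligase, rose by 0.77 (SE 0.09), WDR5, a core subunit of KMT2 complexes, by 0.72 (SE 0.09), DOT1L, the histone H3 lysine methyltransferase recruited by KMT2A fusions, by 0.65 (SE 0.08) and KAT7, a histone acetyltransferase, by 0.54 (SE 0.10). RNF2 fell by 1.38 (SE 0.28), EZH2, the Polycomb methyltransferase, by 1.01 (SE 0.13), XPO1, the nuclear export receptor, by 0.90 (SE 0.13) and MLLT3 by 0.75 (SE 0.23). After the GC correction 6 were higher and 1, EZH2, was lower, against 19.7% and 12.8% of the genes then fitted. WDR5, RBBP5, KAT7 and EZH2 kept their calls, the estimate changed sign for 11 of the 23, and SUZ12, a Polycomb subunit, was called higher with that setting (0.41) and lower without it (-0.53).

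The genes whose pattern over the 8 libraries was most like a member's were searched among 7901 protein-coding genes averaging 10 CPM or more, by Pearson's r of log2 CPM. For HOXA9 they were MAT2B (r = 0.981), CEP97 (r = 0.981) and MCM8 (r = 0.977). For MEIS1 they were SCP2 (r = 0.996), KRIT1 (r = 0.995) and NUDCD2 (r = 0.994), and for PBX3 they were NIPA2 (r = 0.985), SRD5A3 (r = 0.983) and ZZZ3 (r = 0.977). The 8 points share the fractions, so genes lower in polysome RNA will rank high. Between members, MEIS1 and HOXA9 had r = 0.93, and 0.86 once the mean of each fraction was removed. MEIS1 and HOXB3 had r = 0.90, and 0.32 once it was removed.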

How the data were processed

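The deposited files hold raw counts of reads per gene, made by the authors with Trimmomatic 0.38, Bowtie2 and HTSeq 0.11.2 on GRCh38, per the submitters' processing notes; the sources used here do not give the annotation release, the strand setting or the Bowtie2 version. Since Bowtie2 aligns reads without splitting them at introns, junction reads may be lost. Lines that name no gene (13.2% to 15.0% of reads) stayed out. GENCODE v29 gave positions and lengths.

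Genes were tested using edgeR 4.0.16 under R 4.3.3 (quasi-likelihood F test, TMM, filterByExpr, a term per group, 4 residual degrees of freedom), with Benjamini-Hochberg adjustment over 16503 genes and calls at 0.05. HOXA7 passed the filter with reads in 3 of 8 libraries; the other 8 members had reads in all. A fit on simulated counts recovered 89% of genes changed by 1 on the log2 scale in input RNA and 93% in polysome RNA. The simulation had less spread between libraries than these data, whose common biological coefficient of variation was 0.414, and changed only genes with many reads. These shares therefore do not say how often such a change in a member would be called. Alternatives were RLE and upper quartile scaling, other filters, DESeq2 1.42.0, limma-voom (limma 3.58.1), blocks, leaving out libraries and a GC and length correction (loess offsets, span 0.5). A polysome and an input library with the same title come from the same lysate, per the labels' protocols, so the lysate pairs the fractions. Their deviations from the group means correlated at r = 0.16 (labelled knockdown) and 0.17 (labelled control) over 12014 genes. Input and polysome libraries of opposite labels, from different lysates, gave r = 0.12 (input labelled knockdown) and 0.13 (input labelled control). The correlations therefore do not by themselves show the pairing. No label ties a number to a shared culture or batch across labelled knockdown and control, and a number block there was an alternative only.

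The members and lists were chosen with earlier results of these data known. Named genes are the members and FBL; from other lists, up to 4 called genes in each direction per comparison, and for HOX, TALE and noncoding genes any with a mean of at least 1 CPM; and the 3 genes most like HOXA9, MEIS1 and PBX3. SUZ12, RBBP5, HOXA2, HOXA4, FLT3, MPO and KIT, and the genes at 0, were named after their values were seen. HOXA5, HOXB3, HOXB4 and HOXB6 were not matched in the promoter table, and no promoter is shown.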

Additional observations from a re-analysis of the deposited data

How the results depend on the processing

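The count of members called between the labels was 0 in input RNA, in polysome RNA and for the difference under every alternative run, including DESeq2, limma-voom and leaving out each library. With library number as a replicate block it was also 0 in each of these 3 comparisons; numbers across labels correlated at r = 0.30 in input and 0.09 in polysome RNA, and the block moved the polysome calls over all genes to 1053 of 16503 from 145, against 1203 with DESeq2, 297 with limma-voom, 326 at a mean of at least 10 CPM, 1117 with no filter, and 0 in a fit of polysome libraries alone or with GC and length correction. Leaving out a library moved it between 0 (without polysome labelled control 2) and 1455 (without polysome labelled knockdown 1). For polysome against input RNA the count of 6 stayed at 6 with RLE and upper quartile scaling, DESeq2, limma-voom, no filter, and the lysate or the library number as a block, which changed no member's call. Over all genes these settings called 7039 (RLE) to 7763 (limma-voom) of 16503, and 7569 of 22560 with no filter. The members' count was 4 to 6 when each library was left out, 3 with labelled control libraries alone (HOXA10, HOXB3 and MEIS1), 4 with labelled knockdown libraries alone, 2 with GC and length correction and 2 with that correction and the lysate block. Over all genes, leaving out a library gave 5537 of 17778 (input labelled knockdown 1) to 7705 of 17716 (polysome labelled knockdown 1). The single labels gave 4810 (control) and 4697 (knockdown) of 16503. The correction gave 4224 of 13002, and 4982 of 13002 with the lysate block. The counts for single labels are contrasts within the fit of all 8 libraries. Why the members' count moved was not tested. Without HOXA10 the summed level averaged 149 CPM in polysome labelled knockdown and 159 CPM in polysome labelled control, against 197 CPM in input labelled knockdown and 195 CPM in input labelled control; with HOXA10 these means were 253 CPM in polysome labelled knockdown, 264 CPM in polysome labelled control, 352 CPM in input labelled knockdown and 359 CPM in input labelled control. No member's called value changed sign. Depth limits HOXA5 and HOXA7 most, and 2 libraries a group limit all comparisons.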

Other observations

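Genes reported as targets of HOXA9 and MEIS1, 23 in the list and all tested, were not called in input RNA between the labels. In polysome RNA 1 of the 23 was called, against 0.879% of all genes (0.248% higher): ID2, an inhibitor of basic helix-loop-helix factors. In input RNA ID2 was uncalled but higher without overlap, as were 21.1% of all genes. Its input libraries had 77.1 and 76.6 CPM labelled knockdown, against 61.5 and 67.5 CPM labelled control. Its polysome libraries had 29.01 and 24.2 CPM labelled knockdown, against 15.8 and 12.2 CPM labelled control, higher without overlap as in 15.4% of all genes. This was a log2 fold change of 0.93 with an adjusted p of 0.044 in edgeR. The call ended when any library other than polysome labelled knockdown 1 was left out (adjusted p 0.0504 to 0.141 in those 7 fits), with limma-voom (0.055), with GC and length correction (0.054) and with polysome libraries alone (0.302), and the FBL counts do not bear these labels out.

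Between fractions 4 targets rose and 8 fell, against 20.0% and 22.8% of all genes. PRMT1, an arginine methyltransferase, rose by 1.37 (SE 0.06) in polysome against input RNA and SYK, a kinase that works with MEIS1 in leukaemia models, by 1.03 (SE 0.06), followed by CDKN2A at 0.85 (SE 0.26) and SOX4 at 0.52 (SE 0.15). ID2 fell by 1.87 (SE 0.12), FLT3, a receptor kinase, by 1.26 (SE 0.29), USP10, a deubiquitinase, by 1.20 (SE 0.11) and MYC by 1.20 (SE 0.15). PRMT1 had 720.5, 736, 697 and 743 CPM in the polysome libraries labelled knockdown 1 and 2 and control 1 and 2, against 280.1, 280.0, 277 and 284 CPM in the matching input libraries. After the correction for GC content and length 4 of the targets were called the same way as before it, PRMT1 at 0.87, SYK at 0.95, ID2 at -2.02 and USP10 at -0.995, while FLT3 had -0.70 with an adjusted p of 0.079 in edgeR. MYC was not fitted with that correction.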
